A study of Mus musculus with 8 samples.

Results

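Shores, the CpG-poorer stretches that flank CpG-dense DNA, were followed here in nephron progenitors of fetal mice. The autosomes were cut into 1 kb tiles on a 1-based grid. A tile was called dense when at least 30 CpG positions, both strands merged, were seen in any library, and a shore was a tile with 3 to 29 such positions lying directly beside a dense tile. A shore was measured when at least 3 of its CpGs had 10 or more reads in every library (shared CpGs). Of 11486 tiles that met the first condition, 4098 (35.7%) were measured, out of 36513 measured tiles in all. The rule used CpG number, position and coverage and no methylation value. A tile edge is a line of the grid and not the border of a CpG island.

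The DNA came from GFP+ cells sorted from kidneys of CD1 outbred embryos at E17.5, heterozygous for the transgene Tg(Six2-EGFP/cre), which drives EGFP and Cre from Six2 regulatory DNA. The groups compared were CRD, from dams given 70% of the average daily intake during pregnancy, and URD, from dams fed without restriction, with 4 libraries each. Both groups carried the transgene, sires and dams were 8 to 10 weeks old, and embryos were not separated by sex. Reduced representation bisulfite sequencing (RRBS) reads the methylation of fragments cut at an enzyme's sites, so it samples CpG-rich DNA and only parts of each tile. The labels do not say whether libraries came from separate litters, so the p-values measure the spread between these libraries, and because only DNA was measured the cell type could not be checked by its transcripts.

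In mammals most CpGs outside islands are methylated, whereas CpG islands at gene starts are usually free of methylation. Shores lie on the slope between these states, and they are known as places where methylation differs between tissues. Six2 maintains nephron progenitors, and the imprinted gene Gnas encodes the alpha subunit of the stimulatory G protein.

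Promoter sequences show what the tiles hold. The first set has the gene start inside the shore itself, and it is shown because it spans the range from unmethylated to methylated starts. Each sequence is the 250 bases before the annotated start, 5′ to 3′ on the gene's strand, from RefSeq (GRCm38.p6), and the capitals mark the CpGs shared by all 8 libraries.
Spry1: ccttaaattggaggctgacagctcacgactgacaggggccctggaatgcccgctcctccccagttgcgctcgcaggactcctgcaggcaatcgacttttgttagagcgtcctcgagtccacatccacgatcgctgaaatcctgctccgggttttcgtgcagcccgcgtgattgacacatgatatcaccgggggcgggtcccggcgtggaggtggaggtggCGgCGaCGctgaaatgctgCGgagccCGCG
Csf2ra: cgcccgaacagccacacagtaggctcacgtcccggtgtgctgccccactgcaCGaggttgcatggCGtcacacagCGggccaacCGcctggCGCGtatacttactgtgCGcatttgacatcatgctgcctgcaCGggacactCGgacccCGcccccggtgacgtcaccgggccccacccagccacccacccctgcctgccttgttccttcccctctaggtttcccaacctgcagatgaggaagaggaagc
Kcnk10: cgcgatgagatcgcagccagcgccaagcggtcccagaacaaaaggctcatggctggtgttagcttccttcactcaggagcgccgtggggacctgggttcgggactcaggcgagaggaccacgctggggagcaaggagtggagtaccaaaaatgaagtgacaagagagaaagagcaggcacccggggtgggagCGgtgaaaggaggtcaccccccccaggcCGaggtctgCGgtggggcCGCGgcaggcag
Spry1, an inhibitor of receptor tyrosine kinase signalling in kidney development, had its window at chr3:37639697-37639946 (plus strand). Its 6 shared CpGs read 0% in 7 libraries and 1.56% in CRD1. Csf2ra, a cytokine receptor subunit, had its window at chr19:61228419-61228668 (minus strand), with 10 shared CpGs at 65.6% ± 3.12 (SD, n = 4) in URD and 63.6% ± 5.21 in CRD. Single CpGs of this window ran from 19.9% to 93.8% when the URD reads were pooled. Kcnk10, a potassium channel, had its window at chr12:98575128-98575377 (minus strand), with 5 shared CpGs at 0% in all 8 libraries. The Kcnk10 shore as a whole was at 6.14%, so its methylated reads lay outside this window.

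The second set has the start in the dense tile and a methylated shore beside it, and it is shown because these starts were unmethylated although the adjoining shores were not.
Ctnnb1: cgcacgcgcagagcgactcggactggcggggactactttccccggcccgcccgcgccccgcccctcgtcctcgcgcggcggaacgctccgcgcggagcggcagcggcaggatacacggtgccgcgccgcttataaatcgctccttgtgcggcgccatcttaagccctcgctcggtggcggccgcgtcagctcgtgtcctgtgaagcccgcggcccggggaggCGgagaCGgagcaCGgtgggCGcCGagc
Trrap: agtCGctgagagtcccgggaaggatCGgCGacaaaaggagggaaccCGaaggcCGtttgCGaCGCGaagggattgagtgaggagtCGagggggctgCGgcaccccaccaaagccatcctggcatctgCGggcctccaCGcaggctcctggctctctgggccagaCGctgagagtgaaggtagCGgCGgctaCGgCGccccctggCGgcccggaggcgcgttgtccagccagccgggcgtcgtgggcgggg
Fam83g: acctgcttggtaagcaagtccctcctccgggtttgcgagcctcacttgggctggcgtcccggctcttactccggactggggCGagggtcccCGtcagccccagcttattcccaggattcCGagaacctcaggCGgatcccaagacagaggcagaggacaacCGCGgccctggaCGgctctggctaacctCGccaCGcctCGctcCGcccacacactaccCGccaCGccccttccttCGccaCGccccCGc
The window of Ctnnb1, which encodes beta-catenin of the Wnt pathway, lay at chr9:120933328-120933577 (plus strand) and its 5 shared CpGs were at 0% in all 8 libraries, beside a shore at 63.7%. That of Trrap, a scaffold of histone acetyltransferase complexes, lay at chr5:144768544-144768793 (plus strand) with 18 shared CpGs at 0.0570% beside a shore at 96.1%. That of Fam83g lay at chr11:61684160-61684409 (plus strand) with 16 shared CpGs at 0.286% beside a shore at 44.0%. In the promoter table, 179 windows began in a dense tile beside a shore of at least 20% methylation, and 88 of them had 3 or more shared CpGs. Their median level was 0.0739%, and 81 of the 88 were under 5%. Beside shores under 20%, 1364 such windows had a median of 0.0456%, with 1358 under 5%.

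Most shores were unmethylated at the CpGs that were read. In shores beside 1 dense tile these lay mainly near it. Of 32259 shared CpGs, 20570 lay 1 to 200 bp from the tile edge, and the median distance was 138 bp. The levels therefore describe the near part of a shore more than its full 1 kb. The mean over 8 libraries was under 20% in 3698 shores (90.2%), between 20% and 80% in 259 (6.32%) and over 80% in 141 (3.44%). A total of 2910 shores (71.0%) were below 1%, the median shore was at 0.186%, and 721 shores had no methylated read in any library. The measured dense tiles beside shores, 3453 in number, were lower still, with 97.3% under 20% and a median of 0.0766%. The 20216 measured tiles of the same CpG number that did not touch a dense tile were more methylated. Of these, 39.3% were under 20% and 36.7% over 80%, and the median was 52.7%. The part of CpG position within the tile in this contrast was not tested.

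**Figure D1:**
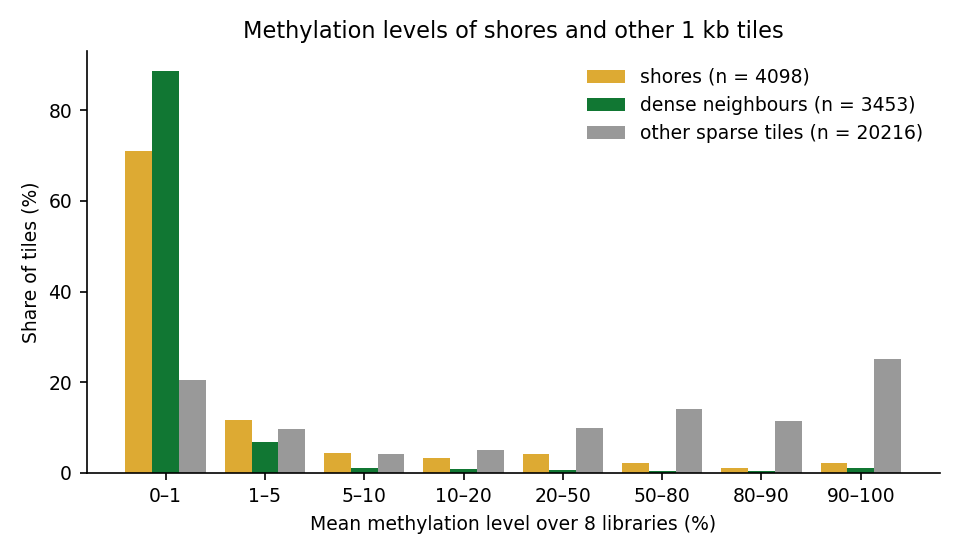
Share of tiles (y axis, %) by mean methylation level over 8 libraries (x axis, %), for the 4098 shores, the 3453 measured dense tiles beside them and the 20216 other sparse tiles. Of the shores, 71.0% lie below 1%, against 88.7% of the dense neighbours and 20.5% of the other sparse tiles.

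A low tile mean mostly meant low CpGs throughout: 3078 shores under 20% had all their shared CpGs under 5%, and 40 others of the 3698 held a CpG of at least 50%. Of the 259 intermediate shores, 56 had all their CpGs between 20% and 80%, 71 held a CpG under 5%, and the median range between the lowest and highest CpG was 43.1 points. CpGs under 20% and over 80% occurred in the same shore in 39 of the 259.

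Shores with fewer CpGs were more methylated. In URD, the 966 shores with 3 to 9 positions averaged 10.7%, the 1690 with 10 to 19 averaged 7.03% and the 1442 with 20 to 29 averaged 4.77%, and the CRD means were 10.6%, 6.91% and 4.65%. At the limit of the rule the order did not continue: the 401 shores with 27 to 29 positions averaged 4.01% in URD, and the 272 dense neighbours with 30 to 32 positions averaged 6.91%.

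Shores were more methylated than the dense tiles they flank. Over the 3663 shores with a measured dense neighbour, the mean difference was 3.82 points ± 0.0726 (SD, n = 8), from 3.75 to 3.94 in the 8 libraries (exact sign-flip permutation p = 0.0078, two-sided, the smallest that 8 libraries can give). The p speaks for the agreement of the libraries over these fixed tiles and not for the spread over shores. The mean difference came from a minority of shores. A total of 3110 shores (84.9%) lay within 5 points of their neighbour, 497 (13.6%) lay more than 5 points above it and 56 (1.53%) more than 5 points below, and the median difference was 0.0668 points. The difference depended on the coverage asked of each CpG: with at least 20 reads it was 1.65 points over 1143 shores. Those same 1143 shores differed by 1.60 points at the minimum of 10 reads, and the 2520 others by 4.83 points. With at least 5 shared CpGs per tile it was 2.07 points.

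Shores and neighbours fell into matching or opposite states at named genes. Of the 96 shores over 80% with a measured neighbour, 48 (50%) lay beside a dense tile over 80% and 40 (41.7%) beside one under 20%. Among shores with at least 8 shared CpGs, the widest step was in Ano8, a member of the anoctamin membrane protein family. Its shore at chr8:71484001-71485000 read 91.8% to 96.2% in URD and 91.9% to 95.4% in CRD. The dense tile beside it had no methylated read in any library. Pofut2, a protein O-fucosyltransferase, had a shore 701 bp downstream of its start at 87.3% beside a dense tile at 0.0207%. Rtl6, a gene derived from a retrotransposon, had one 823 bp downstream of its start at 85.9% beside 0.441%. Krt18, an epithelial keratin, had one at 84.2% beside 16.1%.

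Steps in the other direction were rarer, and 6 shores lay more than 50 points below their neighbour. A shore whose nearest named gene was Yif1b, 469 bp away, was at 21.2% in URD and 14.8% in CRD beside a dense tile at 89.6%. The shore in Diras1, a small GTPase gene, was at 6.81% beside 64.3%. In Tubb5, which encodes a beta-tubulin, the shore was at 0.254% and its dense neighbour ran from 43.5% to 65.5% over the libraries. The dense tiles beside the Dok5, Snx29 and Kcng1 shores were likewise intermediate (48.6%, 41.4% and 40.9%), that of Snx29 over the annotated start of the gene, beside shores at 0.583%, 0.132% and 0.607%. Across 294 dense tiles with a measured shore on both sides, both shores were under 20% in 238, and in 11 one was under 20% while the opposite one was over 80%.

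**Figure D2:**
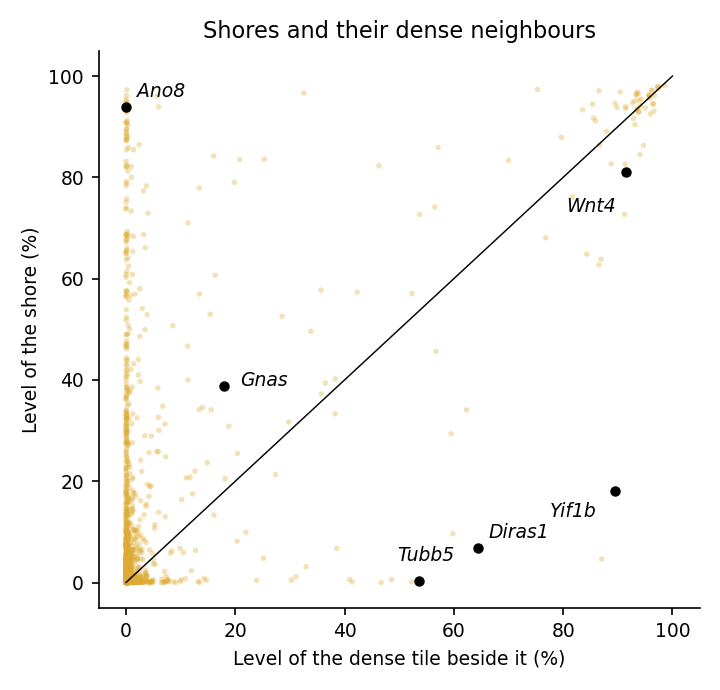
Methylation level of each of 3663 shores (y axis, %) against that of the dense tile beside it (x axis, %), as means over 8 libraries, with the diagonal drawn as a line. The column of points at the left edge holds methylated shores beside unmethylated dense tiles such as that of Ano8, and the few points far below the line include Yif1b, Diras1 and Tubb5.

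Methylation increased with distance from the dense tile. Shared CpGs 1 to 200 bp from the edge averaged 2.77% ± 0.0586 (SD, n = 8), those at 201 to 400 bp 6.03%, at 401 to 600 bp 11.5%, at 601 to 800 bp 12.7%, and those farther out 13.6% to 14.3% over the 8 libraries. On the dense side the bins ran from 0.986% to 1.60%. The rise from the nearest to the farthest shore bin was 11.2 points ± 0.175, from 10.9 to 11.4 in the 8 libraries (exact sign-flip permutation p = 0.0078). As for the gap, this p takes the tiles as fixed. The bins hold different shores. Within the 460 shores that had shared CpGs on both sides of their midpoint, the far side was 8.81 points ± 0.195 above the near side, with 133 shores higher by over 5 points, 19 lower by over 5 points and 308 in between.

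The gradient varied with read depth. Among CpGs whose shallowest library had 10 to 14 reads, the level went from 4.27% (7106 CpGs) near the edge to 20.7% (446 CpGs) in the farthest 200 bp. At 15 to 19 reads it went from 2.57% to 16.9%, and at 20 to 29 reads from 1.54% to 6.87%. At 30 reads or more it was 1.78% (1711 CpGs) near and 1.57% (104 CpGs) far. With a minimum of 20 reads the rise was 3.88 points, and without CRD2, whose absence admits more far CpGs, it was 17.1 points. Tiles that coverage excluded were also more methylated: 3678 of the 7388 unmeasured candidates had enough reads for a pooled level, with means of 21.4% in URD and 20.9% in CRD, against 7.23% and 7.05% for the measured shores by the same count. The part of depth in the gradient and in the shore level was not tested beyond these values.

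**Figure D3:**
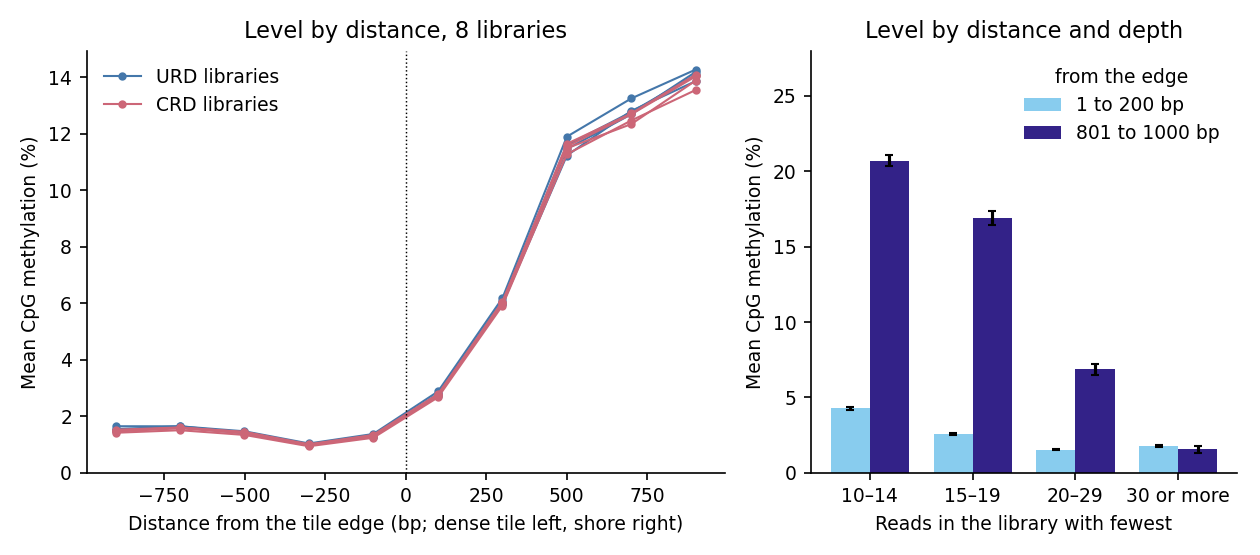
Left, mean CpG methylation (y axis, %) by distance from the tile edge in 200 bp bins (x axis, bp), with 1 line per library. Right, the same for the nearest and the farthest bin, split by the reads in the library with fewest at that CpG (bars, mean over 8 libraries; error bars, SD). The lines of both diets overlap and end between 13.6% and 14.3%, and the far bars drop from 20.7% to 1.57% with depth.

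Where a shore lay relative to genes went with its level. The 623 shores holding an annotated start averaged 2.13% ± 0.0616 (SD, n = 4) in URD and 2.01% ± 0.128 in CRD. Those lying upstream of a start in the dense tile (656) averaged 5.02% and 4.97%, those downstream of one (989) 4.68% and 4.61%, and the 1512 with no annotated start in either tile 12.3% and 12.1%. The 100 shores over 5 kb from any gene were the most methylated class, at 40.2% ± 0.413 and 39.6% ± 0.270, with 36% of them over 80%. Shores beside a dense tile that holds a gene end averaged 5.28 points ± 0.0744 less (n = 8) than the others (4.69% against 10.0% in URD; 2232 and 1866 shores; exact sign-flip permutation p = 0.0078). A gene end here was either boundary of an annotated gene. The difference was −10.7 points when a gene end within 1 kb of the dense tile was counted. It was −8.10 points when shores with an annotated start in the shore itself or in the dense tile were set against the rest. The sign-flip test takes the tiles as fixed and does not measure the spread over shores. The 0.350 points between shores upstream and downstream of a start had the same p by this test.

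Only 18 of the 623 shores that hold a start reached 20%. Plekhg4, a guanine nucleotide exchange factor, was at 96.8%. Dnmt3l, a cofactor of de novo methylation in germ cells, was at 81.5% in URD and 84.4% in CRD. Tnxb (an extracellular matrix tenascin), Htr1d (a serotonin receptor) and Csf2ra were at 72.9%, 60.8% and 49.9%. Chad, a cartilage matrix protein, was at 35.8%. In the Csf2ra shore the 15 CpGs were not alike, with means in URD from 0% to 92.9%, and the 7 at 559 to 615 bp from the edge ran from 54.0% to 92.9%.

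Of all 4098 shores, 3384 (82.6%) were under 5%, and the gene lists were mostly near that share. Of 29 shores at 14 of 30 nephron progenitor genes, 25 (86.2%) were under 5% and the median was 0.208%, against 0.186% over all shores. The Six2 shore at chr17:85679001-85680000, 8254 bp downstream of the start and within the annotated gene, was at 27.6% ± 1.13 in URD and 24.2% ± 1.81 in CRD. Reads from Six2 DNA carried by the transgene and from the native locus cannot be told apart. Pax2, a transcription factor of the kidney lineage, had a shore 2400 bp downstream of its start at 29.5%, and its libraries ran from 15.9% to 52.6% over 3 CpGs. Of 19 shores of early nephron differentiation genes 16 were under 5%, and those in Notch2 (91.8%) and Wnt4 (81.1%, beside a dense tile at 91.6%) were over 80%. Podocyte genes had 8 of 11 shores (72.7%) under 5%, ureteric bud genes 20 of 21, stromal genes 6 of 7, endothelial genes 5 of 5 and blood genes 4 of 4.

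The pathway lists were counted in the same way. Wnt signalling genes had 32 of 38 shores under 5%, with Lrp5, a Wnt co-receptor, at 67.7% and Ctnnb1 at 63.7% among the exceptions. Hox genes had 24 of 29 under 5%, with a Hoxa2 shore 831 bp downstream of its start at 85.5% beside a dense tile at 1.36%. Nutrient and insulin sensing genes had 23 of 29 under 5%, one-carbon metabolism genes 10 of 10 and DNA methylation machinery genes 10 of 13. In the last list Kdm2b, a CpG-binding histone demethylase, was at 47.2%. Imprinted genes were the list with the most methylated shores, 7 of 17 (41.2%) at 20% or more, against 9.76% of all shores.

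Maternal restriction was not accompanied by a detectable change of the shore mean. Shores averaged 6.99%, 7.28%, 7.07% and 7.11% in URD and 6.97%, 6.87%, 7.07% and 7.07% in CRD. The groups overlap, with URD2 highest and CRD2 lowest. The means were 7.11% ± 0.124 and 6.99% ± 0.0972, a difference of −0.118 points (exact permutation p = 0.2 over 70 splits, whose smallest p is 0.0286). CRD1 and CRD2 had read-weighted CpG means that departed from their unweighted ones by −0.769 and −0.998 points (−0.392 to 0.281 in the others), and without them the same shores differed by −0.0421 points (exact permutation p = 0.8). The gap between shore and dense tile differed by −0.0523 points (3.80 in CRD, 3.85 in URD; exact permutation p = 0.371) and the rise with distance by −0.157 points (p = 0.229 by the same exact test). In the 259 intermediate shores the means were 44.0% ± 1.08 in URD and 42.6% ± 1.30 in CRD, a difference of −1.32 points, with 162 of 259 (62.5%) lower in CRD (exact permutation p = 0.229). Other intermediate tiles leaned the same way: 2725 of 4845 other sparse tiles (56.2%) and 28 of 40 dense neighbours were lower in CRD. As unweighted means of CpG levels the same shores differed by −0.912 points (exact permutation p = 0.286).

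Shore by shore, a logistic regression of methylated against unmethylated reads called 1 of 3377 testable shores at a Benjamini-Hochberg adjusted p below 0.05, while it called 6 of all 33897 tested tiles (0.0177%). At an unadjusted p below 0.05 there were 187 shores (5.54%), against 6.32% of all tested tiles. Of these, 102 (3.02%, against 3.32%) were lower in CRD and 85 (2.52%, against 3%) higher. All 4 CRD libraries were below all 4 URD libraries in 42 shores (1.24%, against 1.26%) and above them in 18 (0.533%, against 0.997%). These shares are at or below those of all tiles. The median difference was −0.0302 points over tested shores and −0.0116 over all tested tiles.

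The called shore lies in Gnas at chr2:174327001-174328000, over an annotated start. It read 44.9%, 55.3%, 48.6% and 45.1% in URD and 32.6%, 23.8%, 30.6% and 29.4% in CRD. The groups did not overlap, and the means were 48.4% ± 4.87 and 29.1% ± 3.80 (SD, n = 4), with an adjusted p of 0.0370 from the logistic regression. The dense tile beside it was at 20.9% in URD and 14.8% in CRD, and its single libraries ran from 3.47% to 33.0%. Elsewhere, 2 other Gnas shores gave −11.3 points (33.8% to 22.5%, adjusted p = 0.772) and −1.90 points (58.3% to 56.4%, adjusted p = 0.775). The 8 shared CpGs of the called shore lie within 69 bp, 73 to 142 bp from the edge, and 7 of them gave nearly the same values, 47.4% to 50.2% in URD and 26.4% to 28.8% in CRD. The eighth, at 105 bp, ran from 0% to 96.9% in URD and from 25% to 91.7% in CRD. Single CpGs had 12 to 58 reads per library, so the 160 to 434 reads summed over the shore count the same molecules repeatedly. With the reads of a tile divided by its number of shared CpGs, as if each covered them all, no tile was called. In this fit 6 shores and 80 of all 33897 tested tiles had an unadjusted p below 0.05. The main fit had 6.32% of all tested tiles there. Without any diet effect a share of about 0.05 would be there, so the divided reads were too strict over the tiles as a whole. Whether they were too strict for this shore, whose CpGs lie within 69 bp, was not tested. The call was lost in 4 of the 8 logistic fits that left out 1 library (CRD2, CRD4, URD3 or URD4, adjusted p 0.0580 to 0.0814). It was also lost without CRD1 and CRD2 together (adjusted p = 0.124). The adjusted p was 0.146 with a replicate block, 0.709 with limma and 0.00976 with edgeR. The call held with at least 20 reads per CpG (−21.1 points, adjusted p = 0.00072 by the logistic regression). By the same fit it held without the CpGs of highest coverage (0.0311), with dense tiles from 40 positions (0.0370) and with at least 5 shared CpGs (0.0381).

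**Figure D4:**
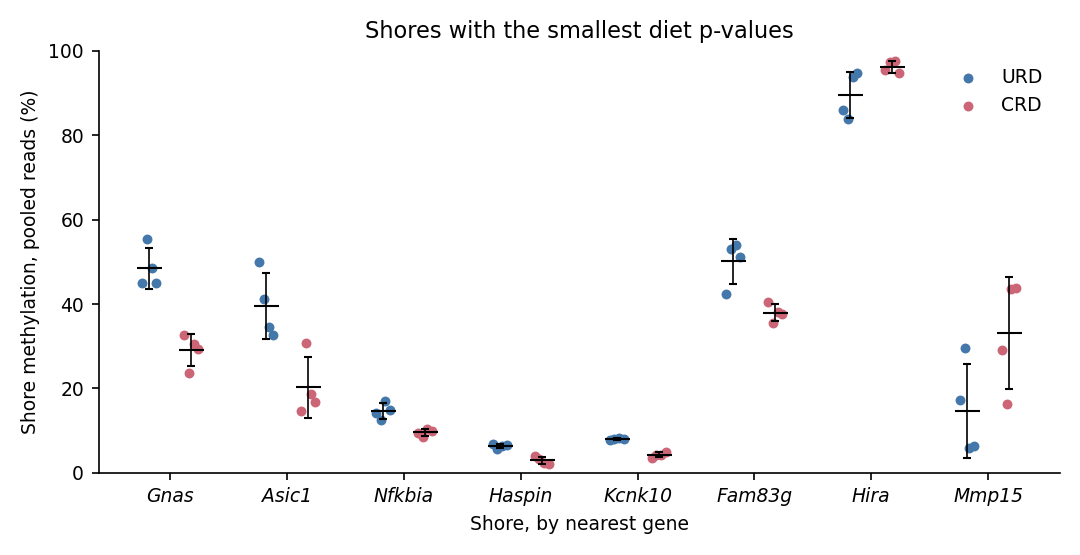
Methylation of 8 shores (y axis, %, pooled reads) in each URD and CRD library (points), with mean and SD (bars), labelled on the x axis by nearest gene. Gnas has all 4 CRD libraries (23.8% to 32.6%) below all 4 URD libraries (44.9% to 55.3%), and the points of Mmp15 overlap.

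The shores with the next smallest p were not called by the logistic regression, and several changed with how a tile was averaged. edgeR's quasi-likelihood test, run as an alternative, called 8 shores (0.237%), while it called 110 of all tested tiles (0.325%). These 8 held Gnas and, among the shores described next, Asic1 (adjusted p = 0.00727), Mmp15 (0.00135), C77080 (0.00166) and Hira (0.0304). In Asic1, an acid-sensing ion channel, the shore averaged 39.6% ± 7.83 in URD and 20.2% ± 7.22 in CRD (adjusted p = 0.229 by the logistic regression and 0.00727 by edgeR). The lowest URD library was at 32.6% and the highest CRD library at 30.8%. It has 2 CpGs near the edge at 1.25% or less and 2 CpGs at 731 and 814 bp with means of 51.4% to 78.8%. The far pair took 56.0% of the reads in URD and 36.4% in CRD. The unweighted mean of the 4 CpGs differed by −7.38 points (exact permutation p = 0.0857) and not by −19.4.

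The shore 354 bp upstream of the start of Nfkbia, which encodes an inhibitor of NF-kappaB, went from 14.6% ± 1.81 to 9.62% ± 0.808 (adjusted p = 0.291). Its 5 CpGs of at least 20% took 29.6% of the reads in URD and 18.9% in CRD. The unweighted means were 20.0% and 19.3% (exact permutation p = 0.686), and 6 of its 13 CpGs had the lower mean in CRD. The part of the read shares in the lower pooled level was not tested. In Kcnk10 the shore read 7.78%, 8.03%, 8.14% and 8.02% in URD and 3.60%, 4.27%, 4.25% and 5.02% in CRD (adjusted p = 0.379). Its 7 CpGs within 184 bp of the edge were at 0%, and the 2 at 683 and 692 bp were at 26.1% and 44.2% in URD and 15.3% and 36.2% in CRD. The unweighted difference was −2.08 points. In Haspin, a histone H3 kinase, the means were 6.38% and 2.93% (adjusted p = 0.303), and −2.13 points unweighted.

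Fam83g did not depend on the weights. Its shore, 591 bp downstream of the start shown with its sequence, read 42.3%, 53.0%, 53.9% and 51.2% in URD. In CRD it read 40.4%, 35.5%, 38.2% and 37.7% (adjusted p = 0.427 by the logistic regression). The lower mean was at 9 of 10 CpGs, and the difference was −12.2 points by both averages. These CpGs lie within 134 bp with 11 to 28 reads each per library. They largely share the same reads, so neither the CpG count nor the agreement of the averages adds independent evidence. Over all 187 shores at an unadjusted p below 0.05, 174 kept at least 50% of their difference in unweighted means, 90 of the 102 lower ones and 84 of the 85 higher ones.

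**Figure D5:**
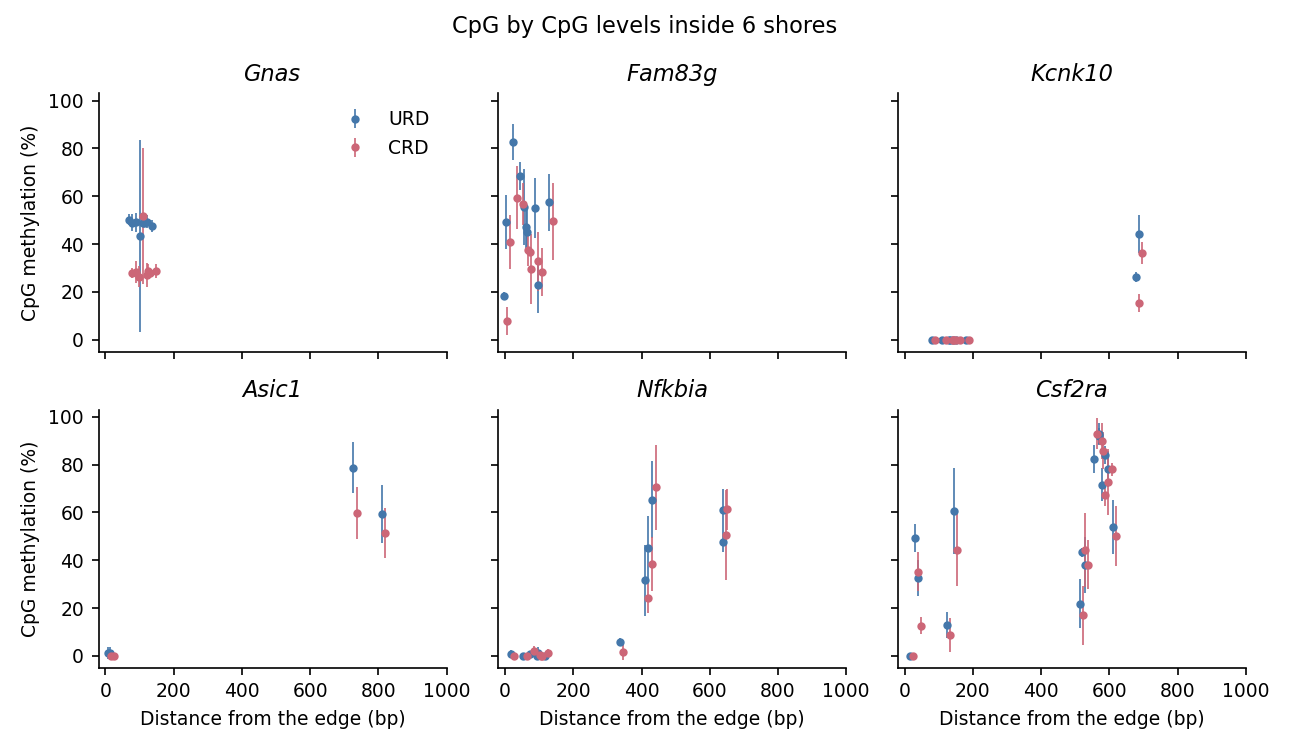
Methylation of single shared CpGs (y axis, %; mean and SD over 4 libraries per diet) by distance from the tile edge (x axis, bp) in 6 shores. In Kcnk10, Asic1 and Nfkbia the CpGs near the edge are at or near 0% and those farther out are methylated, and in Gnas 7 of 8 CpGs show the same separation of the diets.

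Of the 6 shores with the smallest p among those with the higher mean in CRD, most were at low levels in both groups. C77080, Gsx1 and Fscn1 read 0% in all URD libraries and 3.79%, 1.61% and 1.20% on average in CRD, with at least 1 CRD library at 0% each, and Fignl2 went from 0.0864% to 0.768%. The shore 4692 bp from Hira, a histone chaperone gene, was at 89.6% ± 5.48 in URD and 96.2% ± 1.41 in CRD. Upstream of Mmp15, a membrane-bound metalloproteinase, the shore read 17.3%, 29.5%, 5.95% and 6.25% in URD and 29.1%, 16.3%, 43.5% and 43.8% in CRD, overlapping (adjusted p = 0.733 by the logistic regression and 0.00135 by edgeR).

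The gene lists were counted for the diets in the same way. Beside a median difference of −0.0302 points over all tested shores, the lists gave 0.107 (nephron progenitor), 0.0118 (early nephron differentiation), −0.268 (podocyte), −0.0100 (ureteric bud), 0.231 (stroma), −0.182 (endothelium), 0.0338 (blood), −0.0347 (Wnt signalling), 0.128 (Hox), −0.464 (imprinted), −0.0614 (nutrient and insulin sensing), −0.0286 (one-carbon metabolism) and −0.0333 (DNA methylation machinery). The imprinted list held the called Gnas shore, the other lists held none, and 11 of its 17 shores were lower in CRD, beside 53.9% of all tested shores and 51.9% of all tested tiles. At Commd1, whose intron holds the imprinted gene Zrsr1, a shore went from 45.5% ± 6.31 to 34.9% ± 9.41 (adjusted p = 0.737). The nutrient and insulin sensing shore with the smallest p, in Pik3r1 (a regulatory subunit of PI3 kinase), was at 0% in URD and 0.787% ± 0.952 in CRD (adjusted p = 0.737). The next lay in Ttc33, beside the dense tile with the Ttc33 start, and entered the list as 4102 bp from Prkaa1, whose start is 42140 bp away. It read 21.2% to 31.1% in URD and 17.4% to 20.5% in CRD, without overlap (adjusted p = 0.737). Among Hox genes, a shore in Hoxd3 read 1.23% to 3.43% in URD and 5.26% to 5.61% in CRD, also without overlap (adjusted p = 0.753).

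The spread between libraries was widest where methylation was intermediate. In the 259 intermediate shores the median within-group SD was 5.32 points, 1.25 times the binomial expectation of 4.25 points at their depth. It was 5.12 points against an expected 2.80 in 40 intermediate dense neighbours. The binomial values take the reading at each CpG as a separate read, although neighbouring CpGs share reads. Dense neighbours had a median of 20 shared CpGs and shores 7, so the excess cannot be compared between them. In the 259 shores the CRD median SD was 5.49 points and the URD one 4.46. In the 57 of them with at least 20 reads per CpG the medians were 4.39 and 4.27. Over all shores the CRD libraries had medians of 149 to 287 reads per shore and the URD libraries 184 to 306.5. The part of depth in this spread was not tested. CRD2 was the lowest library in 76 of the 259 shores, with a mean deviation of −2.22 points, and URD2 deviated by 2.19. The widest spread among well-covered shores was in Pde4c, a phosphodiesterase gene, whose URD libraries read 33.6%, 53.6%, 18.2% and 40.9% against 33.0% to 46.5% in CRD. In shores under 20% the median SD was 0.239 points, against a binomial 0.252.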

How the data were processed

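RRBS libraries of sorted cells, 4 per group, were analysed from per-CpG tables. Per the submitters' processing notes, the authors used Trim Galore 0.3.3, FastQC, cutadapt, Bismark 0.13.1 and methylKit with mm10. The deposited tables give the read count at each CpG cytosine (coverage) and the percent of reads with C and with T, and these percent values are the authors'. Methylated reads were recovered as the rounded product. Summed coverage was 16045992 to 37305007 per library, and the median shore had 149 to 306.5 reads. At CpGs within the RefSeq promoter windows (GRCm38.p6), 240618 of 240618 positions fell on a CG.

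Both strands were merged. A tile's level was its methylated reads over all reads at shared CpGs, and gap and gradient were taken per library. The diet test was a logistic regression per tile with dispersion moderated as in limma and not under 1, an F test and Benjamini-Hochberg adjustment over 33897 tested tiles. Single values used exact permutation over 70 splits or sign flips over 8 libraries, two-sided. limma 3.58.1 and edgeR 4.0.16 (R 4.3.3) served as alternatives, with log2 M-values computed at an offset of 1. In the fit with a replicate block, the prior dispersion came from tiles with at least 1 expected read of each kind per library. The scripts were tested on simulated data. Libraries of a group differed by 1.62 to 2.36 times the sampling variance per intermediate tile, so no file was a copy of another in its group. That variance takes CpG readings as separate reads, so libraries made from the same sample could not be recognised by it.

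Genes were named by rule: called shores, the 6 smallest p in each direction, the 6 largest gaps in each direction with at least 8 shared CpGs, 2 per list by smallest p, and the 4 largest spreads. Shores named for a high level in a list, for holding a start or as sequence examples were chosen after their values were seen. The members and lists were chosen with earlier results of these data known. Annotated starts came from a promoter table that is not complete, and gene ends from the gene table. Beyond the promoter windows, the sequence of the shores was not used here, since no genome was at hand. Alternatives left out libraries and changed coverage, density, grid, weights and tools.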

Additional observations from a re-analysis of the deposited data

Results flagged for a closer look

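Among 62 groups of 4 libraries checked, 3 held a library far from the others relative to the group's range, and chance gives about 1 in 20. URD2 was highest of its group in the dense tiles beside shores, at 2.44% against 2.34% to 2.35%, and in their mean per shore, at 2.42% against 2.32% to 2.34%. In the Fignl2 shore URD4 read 0.345% and the other URD libraries 0%.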

How the results depend on the processing

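The single call was the least stable result. No shore was called with a replicate block, without CRD1 and CRD2, with each tile's own dispersion, with limma on M-values or with divided reads. The fits without CRD1 and CRD2 and with divided reads were chosen after seeing the data. Limma and the divided reads called no tile of any kind. edgeR called 8 shores (4 lower and 4 higher) and 110 of all tiles. The 8 were Gnas, Asic1, Mmp15, C77080, Hira, Lrrc8d, Gm10476 and a shore with no named gene. Leaving out 1 library gave 0 to 3 calls. The 3 came without CRD3 and were Gnas, Dixdc1 (17.6% in URD, 34.3% in CRD) and Dohh (65.2% and 43.5%). The numbers in the labels may or may not pair the libraries. Same-numbered libraries correlated at −0.0995 to 0.0299 over 5314 intermediate tiles, and 1 of 4 correlated best with its own number. Correlations this weak cannot decide whether same-numbered libraries were handled together.

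The diet difference in the gradient turned to 0.323 points with at least 20 reads per CpG (exact permutation p = 0.114). With class limits of 10% and 90%, 87.0% of shores were in the low class. Leaving out 1 library gave gaps of 3.75 to 4.96 points, gradients of 10.99 to 17.1 points and gene-end differences of −7.63 to −5.26 points with 4.96, 17.1 and −7.63 points all found without CRD2. Leaving CRD2 out added 358 shores with a mean of 34.9% in the other 7 libraries, 46.6% of them at 20% or more, whereas leaving out CRD4, of similar depth, added 252 at 11.4%. The other settings kept direction and side of the threshold for the shore mean, the gap and the gradient. Intermediate shores had a median of 129 reads per shore and library, counted over CpGs that share reads.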
